A study of Mus musculus with 3 samples.

Results

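Endothelial leukocyte adhesion molecules are the surface proteins by which blood leukocytes attach to a vessel wall and cross it. The genes described here were chosen by name as Icam1, Icam2, Vcam1, Pecam1, Sele, Selp, Mcam, Alcam, Cd99l2 and Cd34, and 9 of the 10 had at least 1 transcript in the deposited tables that matched the annotation. None of the 5 annotated transcripts of Selp, which encodes P-selectin, matched by identifier, so Selp was not analysed here. The 9 are among 29787 matched genes, of which 16604 reached a level of 1 in at least 1 library.

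RNA was sequenced from brain vessels of 3-month-old mice in 3 libraries, 1 for each group. In the Cx43-deleted library the connexin 43 gene, Gja1, was floxed and removed by a Cre recombinase driven by the human GFAP promoter (hGFAP-Cre/Cx43fl/fl), with C57BL6-BALB/c given as background. Wild-type mice of the same mixture (WT C57BL6-BALB/c) and wild-type mice of C57BL6 alone (WT C57BL6) made the other groups. Whether a library holds 1 mouse or several was not stated in the labels. The promoter is active in astroglia and in the radial glia from which many neurons arise, and the adhesion genes themselves were not targeted.

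In the resting brain, endothelial cells carry few of the molecules that hold leukocytes. Selectins on the vessel wall catch passing cells and let them roll, and members of the immunoglobulin family, ICAM-1, ICAM-2 and VCAM-1, then bind leukocyte integrins and stop them. PECAM-1, CD99L2 and other junctional proteins act when a stopped cell passes between endothelial cells. Inflammatory cytokines raise E-selectin, VCAM-1 and ICAM-1 through NF-kB, whereas ICAM-2, PECAM-1 and CD34 are made by endothelium without stimulation. Pericytes and smooth muscle cells also make MCAM, neurons make ALCAM, and platelets and leukocytes carry PECAM-1 and ICAM-2.

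The promoters of Icam1 and Sele are shown because cytokines induce both genes, and the sequences are from RefSeq. Each line holds the 160 bases before the annotated start, on the coding strand of GRCm38.p6, with matches to the NF-kB-like pattern GGNNNTTCC (either strand) and to TATAAA in capitals.
Icam1 promoter: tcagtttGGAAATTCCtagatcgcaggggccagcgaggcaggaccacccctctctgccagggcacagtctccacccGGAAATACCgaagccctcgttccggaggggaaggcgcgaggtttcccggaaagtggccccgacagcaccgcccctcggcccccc
Sele promoter: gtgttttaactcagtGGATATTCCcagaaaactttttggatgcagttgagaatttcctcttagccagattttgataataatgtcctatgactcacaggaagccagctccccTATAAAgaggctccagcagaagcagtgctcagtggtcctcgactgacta
The Icam1 stretch is chr9:21015780-21015939 and the Sele stretch chr1:164048074-164048233. In Icam1 the matches began 153 and 84 bases before the start, and in Sele the match began 145 bases before it and TATAAA 49 bases before it.

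Promoters of 7 members were in the table, that of Selp included, and the 250 bases before each start were searched on both strands. The NF-kB-like pattern occurred 2 times in Icam1 and 1 time each in Sele and Selp, and 0 times in Alcam, Cd34, Cd99l2 and Mcam. Of all 32851 promoters in the table, 15.7% held it. The GC box CCGCCC occurred 5 times in Mcam, 2 times each in Alcam and Cd99l2 and 1 time in Icam1, and 32.7% of all promoters held it. A match is a run of letters and no evidence of binding. Icam2, Vcam1 and Pecam1 had no entry.

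Depth was 54975610 reads in the Cx43-deleted library, more than the 21170766 of WT C57BL6-BALB/c or the 24830975 of WT C57BL6. No group had a replicate and no test was run, so every difference given is one between libraries. Levels are CPM, scaled with TMM factors and summed over the transcripts of a gene. Folds use only the transcript with most reads, and their 95% intervals, exact binomial, cover counting error alone. PCR copies are not independent molecules, and variation between animals is not in these intervals. Where 3 values stand together, the deleted library comes first, then WT C57BL6-BALB/c, then WT C57BL6. Gja1 checks the label of the Cx43-deleted library, at a level of 48.0 against 202 and 202, but cannot tell the WT libraries apart. The endothelial markers Cldn5, Cdh5, Tek and Tie1 had levels of 466, 190.4, 467 and 259 in the Cx43-deleted library, so endothelial RNA was present. In such bulk tissue, fewer cells of a type and less RNA per cell cannot be told apart.

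All 9 measured genes were lower in the Cx43-deleted library than in WT C57BL6-BALB/c, by log2 ratios between −0.90 and −0.07 (median −0.35), whereas 49.5% of all 16604 genes were lower and their median was 0.0030. For 7 of the 9 the counting interval of the fold lay wholly below 1, Alcam and Cd99l2 being the others. The share of all genes with such an interval was not counted. Intervals narrow as reads rise, so this count describes counting precision only. Counts of 2-fold differences use the log2 ratio with a pseudocount of 0.5, which shrinks the ratio of Sele. On that scale 2-fold was reached by 0 of the 9 (by Sele with a pseudocount of 0.1), against 1.01% of all genes that were 2-fold lower and 1.05% that were 2-fold higher. Set against WT C57BL6, 8 of the 9 were lower, as were 52.9% of all genes, and Alcam was higher. The median of the 9 was −0.93 and that of all genes −0.03. In that comparison 3 of the 9, Sele, Icam2 and Cd34, were 2-fold or more lower, against 2.91% of all genes. Sele passed the minimum level only through the WT libraries, and without it the count was 2 of 8.

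In the Cx43-deleted library 8 of the 9 genes lay below both WT libraries, compared with 35.6% of all genes, and 0 lay above both, compared with 33.2%. On the log2 scale with the pseudocount none of the 9 was 2-fold below both, where 0.379% of all genes were, although the reads of Sele were more than 2-fold lower than in each. Without Sele, 7 of 8 were below both. Both comparisons use the same Cx43-deleted library, so they do not support each other independently.

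**Figure D1:**
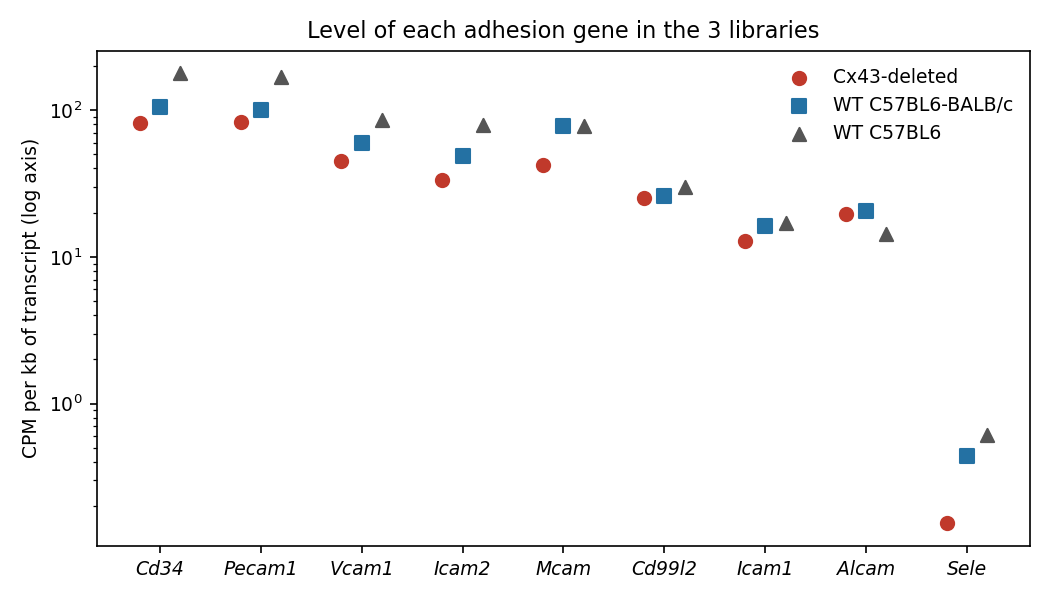
Level of 9 adhesion genes as CPM of the most abundant transcript per kb of its length (log axis), with a circle for the Cx43-deleted library, a square for WT C57BL6-BALB/c and a triangle for WT C57BL6, 1 library each. Cd34 and Pecam1 stood at 81.6 and 82.9 in the Cx43-deleted library, and Sele at 0.154.

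Levels can be compared between genes only per length, and the plot of levels gives the CPM of the most abundant transcript per kb of its length. In the Cx43-deleted library Pecam1 and Cd34 led with 82.9 and 81.6 and did not differ beyond counting error, with a ratio of 1.02 (0.991 to 1.04). Vcam1 at 44.9, Mcam at 42.2, Icam2 at 33.1, Cd99l2 at 25.1, Alcam at 19.6 and Icam1 at 12.8 followed, each apart from its neighbour by more than counting error. Sele was last at 0.154, a factor of 83.3 (55.8 to 130) under Icam1. In WT C57BL6-BALB/c Mcam, at 78.2, stood ahead of Vcam1 at 59.4. In WT C57BL6 Mcam, at 78.1, stood behind Vcam1 and could not be separated from Icam2 at 78.6 (ratio 1.01, 0.959 to 1.06). Alcam stood above Icam1 in both libraries of the mixed background, and below it in WT C57BL6, at 14.3 against 17.0. In WT C57BL6, however, 952 of the 4109 bases of the Alcam transcript had no read, against 0 of the 2526 of Icam1. Their order there can depend on the length used, which the counting interval does not cover.

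Sele (GRCm38 chromosome 1, 164048234 to 164057677) encodes E-selectin, which endothelium displays after cytokine stimulation and on which leukocytes roll. Only 24 reads fell on it in the Cx43-deleted library, while WT C57BL6-BALB/c had 27 and WT C57BL6 had 45. Its level was 0.447 against 1.27 and 1.77, so it was lowest in the Cx43-deleted library and near the lower limit of measurement in all of them. The fold was 2.85 lower (1.58 to 5.15) than in WT C57BL6-BALB/c and 3.96 lower (2.36 to 6.79) than in WT C57BL6. The WT libraries could not be separated for Sele, since the interval of WT C57BL6 over WT C57BL6-BALB/c ran from 0.845 to 2.33. Of the 2912 bases of its transcript, 1971, 1752 and 1335 had no read. On the log2 scale with a pseudocount of 0.5 the ratios were −0.90 and −1.26, smaller than the folds of reads, because that scale shrinks the ratio of low genes.

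Icam1 (chromosome 9, 21015985 to 21028817) encodes the endothelial ligand of the leukocyte integrins LFA-1 and Mac-1. Its reads numbered 1735, 873 and 1092, and its levels were 32.3, 41.2 and 43.0. It was 1.27-fold (1.17 to 1.38) lower in the Cx43-deleted library than in WT C57BL6-BALB/c and 1.33-fold (1.23 to 1.43) lower than in WT C57BL6, while the WT libraries lay close together at a ratio of 1.04 (0.954 to 1.14). Of the annotated exon bases of Icam1, 20.2% overlap the antisense gene Gm47079, and as the libraries keep no strand, reads of the pair cannot be told apart.

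Vcam1 (chromosome 3, 116109949 to 116129688) encodes the ligand of the integrin VLA-4 of lymphocytes and monocytes. With 7329, 3837 and 6646 reads and levels of 136.6, 181 and 262, it was lowest in the Cx43-deleted library and highest in WT C57BL6. It was 1.32-fold (1.27 to 1.38) and 1.91-fold (1.85 to 1.98) lower in the Cx43-deleted library, and the WT libraries differed by 1.45-fold (1.39 to 1.505). All 3046 bases of its transcript had reads in the Cx43-deleted library and in WT C57BL6, and 5 had none in WT C57BL6-BALB/c.

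Icam2 (chromosome 11, 106377656 to 106388075), a second ligand of LFA-1 that endothelium makes at rest, followed the same order. It had 2029, 1168 and 2281 reads and levels of 95.7, 137 and 223. It was 1.46-fold (1.35 to 1.57) lower than in WT C57BL6-BALB/c and 2.37-fold (2.23 to 2.52) lower than in WT C57BL6, and the WT libraries were 1.63-fold (1.52 to 1.75) apart. Thus more of its distance from WT C57BL6 lay between the WT libraries, a log2 ratio of −0.70, than between the Cx43-deleted library and WT C57BL6-BALB/c, at −0.51.

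Pecam1 (chromosome 11, 106654217 to 106750628) encodes PECAM-1 of endothelial junctions, which binds itself across cells during leukocyte passage. Its reads were 15308, 7289 and 14579 and its summed levels 1145, 1378 and 2264, of which the sum counts a read on every one of 6 overlapping transcripts. It was lower by 1.20-fold (1.17 to 1.24) than WT C57BL6-BALB/c showed, and by 2.01-fold (1.97 to 2.06) than WT C57BL6 showed. The log2 ratio of the summed level to WT C57BL6 was −0.98, just short of 2-fold.

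Cd34 (chromosome 1, 194938819 to 194961279) encodes a sialomucin of the luminal endothelial surface that can carry the sugars bound by L-selectin. It had 10463, 5293 and 10788 reads and levels of 259, 331 and 556. The Cx43-deleted library was lowest and WT C57BL6 highest, with folds of 1.28 (1.24 to 1.32) and 2.18 (2.12 to 2.24) lower in the Cx43-deleted library. The WT libraries were 1.70-fold (1.65 to 1.76) apart, which again exceeds the distance of the Cx43-deleted library from WT C57BL6-BALB/c. An overlapping gene, Gm16897, covers 5.67% of the annotated exon bases.

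Mcam (chromosome 9, 44134469 to 44142727) encodes CD146, an adhesion protein of endothelial cells, pericytes and smooth muscle that also serves T cell entry. Its reads were 6766, 4955 and 5931 and its levels 311, 582 and 572. Only the Cx43-deleted library stood apart here, by 1.85-fold (1.79 to 1.92) from WT C57BL6-BALB/c and by 1.85-fold (1.79 to 1.92) from WT C57BL6, whereas the WT libraries were at a ratio of 0.999 (0.962 to 1.04). Smooth muscle markers were lower in the Cx43-deleted library too: 16 of 16 were below WT C57BL6-BALB/c with a median log2 ratio of −0.84, and 13 of 16 below WT C57BL6 with a median of −0.44. Of all genes, 49.5% and 52.9% were lower in these comparisons. The summed level of the smooth muscle markers was 3331, 5472 and 4182. Between the WT libraries that list had a median of 0.43, where Mcam was at 0.03. Pericyte markers had medians of −0.03 and −0.71, with 7 of 14 and 14 of 14 lower, and their summed level was 3295, 3320 and 5365. The part of smooth muscle RNA in the Mcam difference was not tested.

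Among 6872 protein-coding genes with a mean level of at least 50, those nearest to Mcam in their pair of log2 ratios over the 3 libraries were Synpo2, Ppib and Cspg4, at distances of 0.03, 0.07 and 0.07. Synpo2, an actin-binding protein of muscle, was at 94.9 against 180 and 172. Cspg4, the proteoglycan NG2 of pericytes, was at 56.2 against 109 and 100.1. Nearest to Icam1 were Lrrc58, Nr3c2 and Scn2b, at distances of 0.0031, 0.0060 and 0.02. Nearest to Vcam1 were Rasgrp3, Tnfrsf19 and Afap1l2, at 0.01, 0.02 and 0.03. With 3 libraries, such nearness describes 2 ratios per gene.

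Alcam (chromosome 16, 52248996 to 52454074) encodes CD166, a ligand of CD6 on T cells and an adhesion protein of growing axons. It was the exception among the measured members, with 4323, 1796 and 1497 reads and levels of 80.6, 84.7 and 58.9. The libraries of the mixed background did not differ beyond counting error, at a ratio of 0.952 (0.900 to 1.01), and both were above WT C57BL6, by 1.37-fold (1.29 to 1.45) for the Cx43-deleted library and 1.44-fold (1.34 to 1.54) for WT C57BL6-BALB/c. Neuron markers did not move as one list: 6 of 12 were higher and 6 lower in the Cx43-deleted library than in WT C57BL6 (median −0.03), and 8 of 12 were higher in WT C57BL6-BALB/c than in WT C57BL6 (median 0.24). Their summed level, to which abundant markers add most, was 6443, 6666 and 5440. Whether neuronal RNA has a part in the Alcam difference was not tested. Between 890 and 974 of the 4109 bases of the Alcam transcript had no read in each library.

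Cd99l2 (chromosome X, 71420060 to 71492849), a CD99 relative that acts in the passage of neutrophils and T cells, varied least. Its reads were 4844, 1995 and 2751 and its levels 283, 297 and 339. The Cx43-deleted library did not differ from WT C57BL6-BALB/c beyond counting error, at a ratio of 0.960 (0.911 to 1.01), and was 1.20-fold (1.14 to 1.26) below WT C57BL6.

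**Figure D2:**
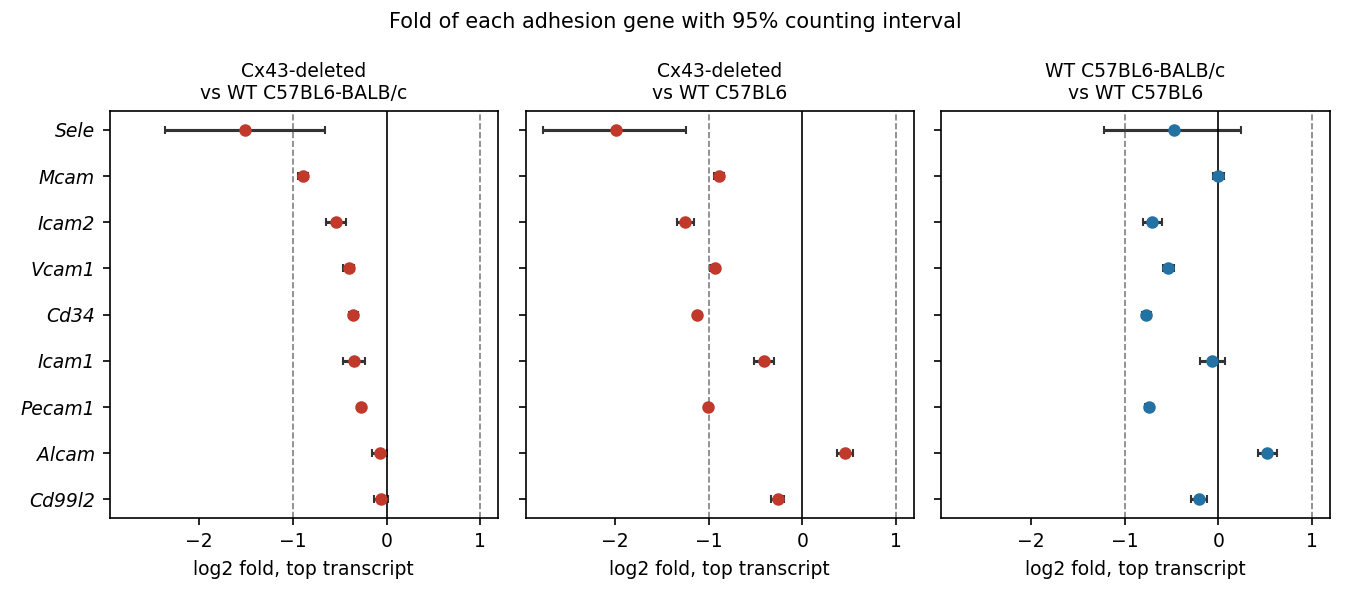
Log2 fold of the reads of the most abundant transcript of 9 adhesion genes in 3 comparisons, as points with 95% counting intervals as bars. Dashed lines mark a 2-fold difference. Mcam stands near −0.89 against both WT libraries and near 0 between them, and Alcam lies right of 0 against WT C57BL6.

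The plot of folds also shows how the WT libraries compare. Between WT C57BL6-BALB/c and WT C57BL6, without any deletion, 7 of the 9 were lower in the mixed background, as were 53.3% of all genes. Of these 7, 5 were lower by more than counting error: Icam2, Vcam1, Pecam1, Cd34 and Cd99l2. The share of all genes lower by more than counting error was not counted. The median of the 9 was −0.36, and that of all genes −0.03. The intervals of Icam1, Sele and Mcam held 1. WT C57BL6 was the highest library for 7 of the 9, as it was for 43.8% of all genes. In this comparison 0 of the 9 reached 2-fold, against 2.09% of all genes 2-fold lower and 1.17% 2-fold higher.

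**Figure D3:**
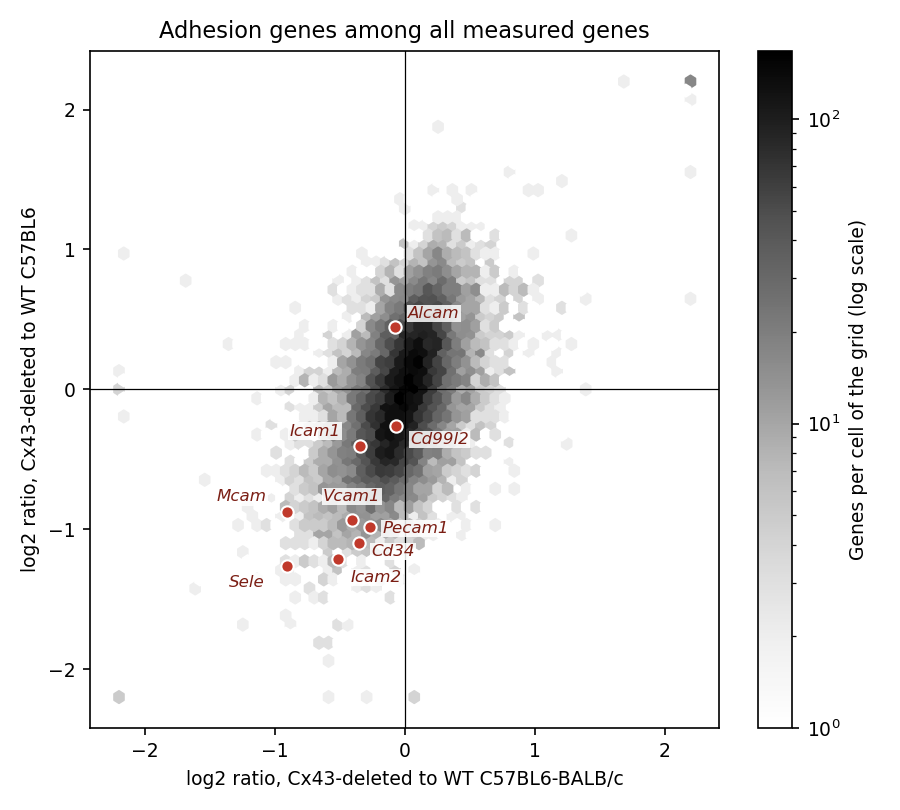
Log2 ratio of the Cx43-deleted library to WT C57BL6-BALB/c (horizontal) and to WT C57BL6 (vertical) for 16604 genes (hexagons, darker where more genes fall) and 9 adhesion genes (red points), genes beyond 2.2 being drawn at the edge. The axes share the Cx43-deleted library, so the slope of the cloud is partly built in, and 8 of the 9 lie to the lower left of the origin.

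Endothelial markers as a list had lower medians in the Cx43-deleted library as well, which touches each endothelial gene in the plot of ratios. Of 25 measured endothelial markers, none of them a member, 17 lay under each WT library, where 35.6% of all genes did. Only 1, the glucose transporter Slc2a1, lay over each. The markers summed to levels of 14347, 14473 and 22362, so the libraries of the mixed background were close. Against WT C57BL6-BALB/c, 17 were lower and 8 higher in the Cx43-deleted library. Their median in that comparison was −0.15, where the lower quartile of all genes was −0.17. Relative to WT C57BL6 it was −0.75, and the WT libraries themselves differed by −0.64. When each comparison was centred on these markers, 6 of the 9 genes were below both WT libraries, and 2, Alcam and Cd99l2, were above both. Sele and Mcam were then at −0.75 and −0.75 against WT C57BL6-BALB/c, Icam2 at −0.36, Vcam1 at −0.25, Cd34 at −0.20, Icam1 at −0.19 and Pecam1 at −0.11. Against WT C57BL6, Icam1 changed sign to 0.35, and Mcam stood at −0.13, Vcam1 at −0.18, Pecam1 at −0.23, Cd34 at −0.35, Icam2 at −0.46 and Sele at −0.51. Alcam was then 1.20 above WT C57BL6. This centring moves the median of all genes to 0.16 and 0.72, so it gives levels relative to endothelial markers and not to total RNA.

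Arterial and venous endothelial markers were counted separately. Some genes, Il1r1 among them, stand in more than 1 of the lists described here, so counts of different lists are not independent. All 12 arterial markers were below both WT libraries, where 35.6% of all genes were, with medians of −0.22 and −0.73. With endothelial markers centred on 0, 4 of the 12 were. Gja5, the arterial connexin 40, was at 16.7 against 35.3 and 33.9. Of 10 venous and activated markers, with Sele and Selp left out, 5 were under both WT libraries and 1 over, and the medians were 0.11 and −0.35. Centring left 1 of the 10 under both. The difference between the lists was not tested. Slc38a5, an amino acid transporter, was at 99.8 against 163 and 315, and Il1r1, the interleukin-1 receptor, was at 398 against 210 and 320, above both.

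Other genes listed for endothelial adhesion and passage were mostly lowest in the Cx43-deleted library. Of 24 measured, 19 lay under each WT library, where 35.6% of all genes did, and Icam5, L1cam and Jam3 lay over each. Which cells made the RNA of these genes was not tested. With endothelial markers centred on 0, 6 rather than 19 lay under each. The medians were −0.17 and −0.46. Cd93, a C-type lectin-like receptor of endothelium, was at 105.3 against 183 and 287. Podxl, podocalyxin, a sialomucin related to CD34, was at 564 against 824 and 1191. F11r, which encodes JAM-A of tight junctions, was at 69.8 against 97.9 and 141. Madcam1, a mucosal addressin, had 16, 6 and 9 reads and did not reach the minimum level.

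Beneath ICAM-1 and VCAM-1, adaptor and actin-binding proteins gather in the docking structure that surrounds an adhering leukocyte. Of 20 such genes, 15 were lowest and 2, Cttn and Src, highest in the Cx43-deleted library, and the medians were −0.26 and −0.33. Of all genes, 35.6% were lowest and 33.2% highest in that library. With endothelial markers centred on 0, 3 rather than 15 of the docking genes were lowest there. Msn, moesin, which links ICAM-1 to actin, was at 229 against 321 and 456. Cav2 was at 111.8 against 151 and 202, and Ezr, ezrin, at 92.9 against 122 and 151. Cttn, cortactin, was on the other side, at 249.8 against 209 and 194.

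Cytokine receptors and NF-kB genes, which control Sele, Vcam1 and Icam1, had a median log2 ratio of −0.04 relative to WT C57BL6-BALB/c, but −0.39 relative to WT C57BL6. Of 31 measured, 16 were lowest in the Cx43-deleted library and 4 (Irak1, Ikbkb, Il1r1 and Nfkbib) highest, against 35.6% and 33.2% of all genes. Il1b, interleukin-1 beta, was the one that reached 2-fold below both, on 15, 23 and 37 reads. Its level was 0.485 against 1.70 and 2.05, so it passed the minimum level only through the WT libraries, and a low value in the Cx43-deleted library is partly set by that. Tlr4, the receptor for bacterial lipopolysaccharide, was at 4.98 against 8.72 and 10.7. Tnfaip3, an inhibitor of NF-kB that is itself induced by it, was at 24.3 against 31.7 and 45.0. Nfkbib, another inhibitor, was above both at 46.8 against 29.9 and 35.9. Tnf and Il6 did not reach the minimum level, with 8, 6 and 4 reads and with 1, 0 and 3.

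The leukocyte partners of these molecules were mostly low. Of 18 measured ligands and counter-receptors, 10 were lowest and 1, Pxn, highest in the Cx43-deleted library, against 35.6% and 33.2% of all genes. The medians were −0.19 and −0.44. Itgax, among the 10, was at 0.671 against 1.13 and 1.34. It passed the minimum level only through the WT libraries, and its low value in the Cx43-deleted library is partly set by that. Cd44 was at 21.1 against 31.3 and 35.5, Itgam, the Mac-1 alpha chain, at 23.8 against 31.5 and 40.6, and Lama4, a laminin chain of the vessel basement membrane, at 35.5 against 48.7 and 69.4. Itgb2, the chain shared by LFA-1 and Mac-1, was at 14.9 against 15.4 and 30.5. Pilrb1 had 0 reads in all 3 libraries, where 3 reads would be a level of 0.0559, 0.141 and 0.118. Cd6, the partner of ALCAM, was at 8.48 against 14.6 and 7.44, so it was highest in WT C57BL6-BALB/c.

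Enzymes that shape the sugars on selectin ligands had medians of −0.03 and −0.31. In the Cx43-deleted library 5 of 10 were lowest, against 35.6% of all genes. Fut7, the fucosyltransferase of sialyl Lewis x, was the one highest there, at 7.61 against 5.61 and 6.06. Proteases that shed adhesion molecules, and their inhibitors, had medians of −0.0049 and −0.11. With 4 of 11 lowest in the Cx43-deleted library, their share was near that of all genes. The 3 that were highest there were Adam17, which sheds VCAM-1, at 377 against 331 and 362, Mmp9 at 9.84 against 6.37 and 5.63, and Adam8 at 152 against 109 and 79.4.

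**Figure D4:**
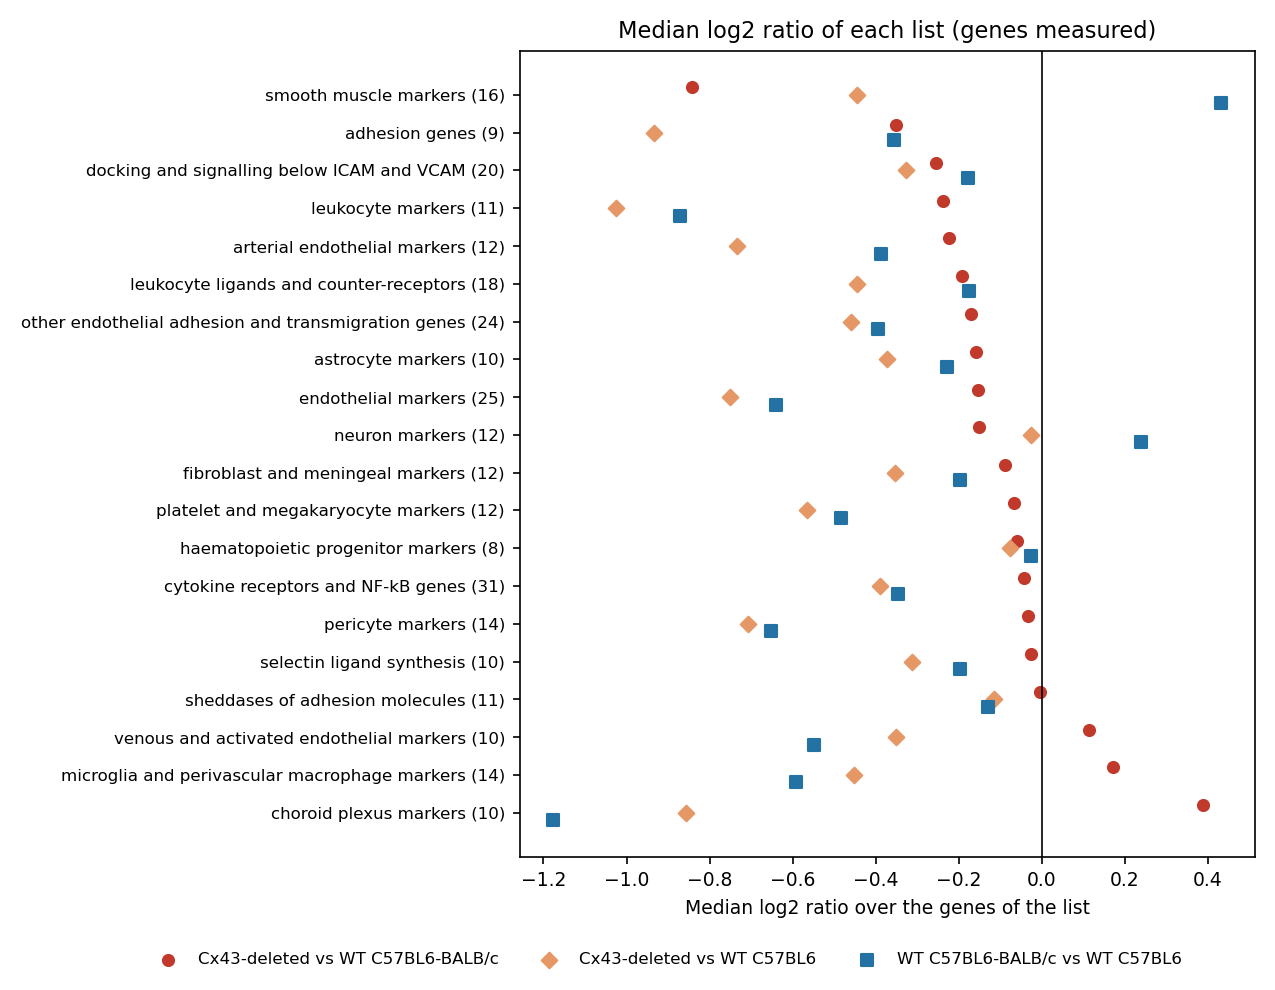
Median log2 ratio of each gene list in 3 comparisons, with the number of genes measured in brackets, sorted by the ratio to WT C57BL6-BALB/c. Smooth muscle markers have the lowest median in that comparison at −0.84, followed by the adhesion genes at −0.35, and choroid plexus markers the highest at 0.39.

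Markers of other cells in the preparation are drawn in the plot of list medians, since platelets, leukocytes, choroid plexus epithelium and fibroblasts can also carry some of the members. Beside the counts that follow, 35.6% of all genes lay below both WT libraries. Platelet and megakaryocyte markers summed to levels of 64.4, 71.0 and 82.9, with medians of −0.07 and −0.56. Leukocyte markers summed to 374, 404 and 533, with medians of −0.24 and −1.03 and 8 of 11 below both WT libraries. The T cell genes Cd3e and Cd3d had 29, 8 and 9 and 14, 8 and 9 reads, under the minimum level. Choroid plexus markers summed to 4723, 3572 and 8916, and 0 of 10 were below both. Fibroblast and meningeal markers summed to 1089.97, 1169 and 1534, with 9 of 12 below both. Haematopoietic progenitor markers summed to 420, 441 and 381, with 3 of 8 below both, near the share of all genes. Microglia and perivascular macrophage markers summed to 451, 398 and 609, and astrocyte markers to 3329, 3767 and 4315, with 4 of 14 and 7 of 10 below both. Among the markers of these lists, Elane, of granulocyte precursors, had 0 reads in the Cx43-deleted library, and no other was at 0. The part of any of these cell types in the levels of the 9 genes was not tested.

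Transcripts of 1 gene that share most of their bases had similar folds. Some short or intron-holding ones had folds further off, on fewer reads. A read counts on every transcript it overlaps, so these values are not independent. The 5 Mcam transcripts were lower in the Cx43-deleted library by 1.85-fold to 2.06-fold than in WT C57BL6-BALB/c, and by 1.71-fold to 1.89-fold than in WT C57BL6. Mcam-201 and Mcam-202, with coding lengths of 1944 and 1818 bases, were 1.85-fold and 1.86-fold lower against WT C57BL6-BALB/c. Of Cd34, the longer form Cd34-201 has 1146 coding bases and Cd34-202 has 975. Cd34-202 held 32.9%, 32.6% and 31.0% as many reads as Cd34-201 in the 3 libraries. It was counted on 1058 bases, against 2389 for Cd34-201, although the annotation gives it 2554 exon bases. Pecam1-201, 691 of whose bases lie outside Pecam1-204, held 61.4%, 61.3% and 57.4% as many reads as Pecam1-204. Of the 2977 bases of Pecam1-201, 515, 536 and 518 had no read. For both genes the share was lowest in WT C57BL6, by a small step. Such shares depend on the counted lengths and on shared reads, so they are not proportions of the forms made. For the Cx43-deleted library over WT C57BL6-BALB/c, Icam2-202, a transcript with a retained intron, was at 0.915 (0.737 to 1.14). Icam2-201 was at 0.687 (0.639 to 0.739), and these intervals just overlapped. The retained-intron transcript Cd99l2-205, on 153, 81 and 106 reads, was at 0.747 (0.567 to 0.990) in the same comparison. Cd99l2-201 was at 0.960 (0.911 to 1.01), so these intervals overlapped as well.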

How the data were processed

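RNA from brain vessels was sequenced in 3 libraries, 1 per group, assigned from the labels. Per the file headers, the authors deposited a whole-number read count for each of 82813 transcripts, not normalised, and a fraction, which is the count over 1 total per library. The counts sum to 2.55, 2.53 and 2.45 times the totals, so a read counts on several transcripts. Per the labels' protocols the kit was TruSeq RNA v2. Per the submitters' processing notes, CASAVA 1.8.2, Bowtie and mm10 were used. The counting program was not given in the sources used here, and the tables' coordinates, of another build, were not used. Identifiers were matched to GENCODE M21 (69162 on the same chromosome, 213 on another and left out, 13438 unmatched). Counts were summed per gene and scaled by total times TMM factor (0.976, 1.00 and 1.02; edgeR 4.0.16, R 4.3.3). Log2 ratios used a pseudocount of 0.5, a level of at least 1 in 1 library, and 2-fold as the threshold. Intervals are exact binomial at 95% (scipy 1.17.1, Python 3.11.15). DESeq2 1.42.0 gave alternative size factors. The steps were run on simulated Poisson counts with known folds. That simulation held no variation between animals and no reads shared between transcripts, so it does not cover either.

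The members and lists were chosen with earlier results of these data known. All members and Gja1 are named, as are, per list, genes 2-fold or otherwise furthest beyond both WT libraries at a level of 5 or more (Il1b alone passed the first part), defining markers, and for Mcam, Icam1 and Vcam1 the 3 nearest genes. Icam5, L1cam, Jam3, Madcam1, Slc2a1, Src, Cttn, Irak1, Ikbkb, Tnf, Il6, Pxn, Itgax, Itgb2, Cd6, Adam17, Elane, Cd3e and Cd3d were named after their values were seen.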

Additional observations from a re-analysis of the deposited data

How the results depend on the processing

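Alternatives were pseudocounts of 0.1 and 1, scaling by library total or by median-of-ratios size factors (DESeq2), centring on endothelial markers, the most abundant transcript alone, no filter and a minimum level of 5. The number of genes below both WT libraries was 8 in the main setting and 6 to 8 in these, being 7 at a minimum level of 5, where Sele falls out and gives no value. The number 2-fold apart against WT C57BL6-BALB/c was 1 (Sele) with a pseudocount of 0.1. Against WT C57BL6 it was 3 in the main setting and 5 with scaling by library total, Pecam1 and Vcam1 being added. It was 4 with the most abundant transcript alone, Pecam1 being added, and 2 with a pseudocount of 1 or a minimum level of 5. With centring on endothelial markers it was 1 (Alcam, higher). Between the WT libraries that centring gave 1 (Alcam), and it placed 2 genes above both WT libraries. It moved 24 of 27 log2 ratios by more than 0.5 of the width of their counting interval, and scaling by library total moved 5, all against WT C57BL6. No called ratio changed sign. Among ratios short of 2-fold, the sign changed under at least 1 setting for Cd99l2 in every comparison and for Alcam against WT C57BL6-BALB/c. It also changed for Icam1 against WT C57BL6, and for Icam1, Mcam, Sele and Vcam1 between the WT libraries. Of all genes, 298 were 2-fold higher between WT C57BL6-BALB/c and WT C57BL6 with a pseudocount of 0.1 and 120 at a minimum level of 5, against 195. At that level 113 rather than 175 were 2-fold higher against WT C57BL6-BALB/c. With centring, 801 of all genes were lowest and 11883 highest in the Cx43-deleted library, and 3 rather than 7 of the 9 were lower in WT C57BL6-BALB/c than in WT C57BL6. Companion lists shrank as well: the number below both fell to 6 of 24 other endothelial adhesion genes, 3 of 20 docking genes, 5 of 31 cytokine receptor and NF-kB genes, 2 of 18 leukocyte ligands, 2 of 16 smooth muscle markers and 0 of 10 selectin ligand enzymes. Leukocyte markers changed less, from 8 of 11 to 6. Sele, with 24 to 45 reads, is the member that depth limits. No paired analysis was possible because each group has 1 library and the labels carry no shared replicate number.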
